A study of Mus musculus with 6 samples.

Results

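Sbp, Sbpl, Spink1 and Abo are 4 of the 24421 genes counted in whole mouse prostate, and form a set because each was abundant in control prostates and nearly absent from prostates with stromal loss of p62. The choice was made from these same counts. The difference between the genotypes is therefore described below with no test, and it supports nothing beyond itself. All 4 genes had a row in the count table and all 4 passed the filter on low counts, which kept 13762 genes.

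The 6 libraries came from whole prostates of C57BL/6 mice aged 52 weeks, sequenced as polyadenylated RNA in single reads of 75 bases. The 3 control libraries came from p62f/f mice, which carry floxed alleles of p62 and which the labels also call wild type. The 3 knockout libraries, labelled p62FSP1KO, came from floxed mice that also carried FSP1cre, a Cre recombinase named for the fibroblast-associated protein FSP1, and the labels place the deletion in the stroma. Both groups share the floxed alleles, the strain and the age, and the labels list neither the lobes taken nor whether each library is a separate animal. Total counts ran from 12826463 to 20011908 in controls and from 14761703 to 26910053 in knockouts. p62 itself (Sqstm1) was at 360.4, 409 and 295 CPM (counts per 1000000, scaled by TMM factors throughout) in control 1, 2 and 3, against 541, 387 and 462 CPM in knockout 1, 2 and 3. A stromal deletion read over a whole gene in a whole organ gives no check of the genotype labels. In bulk tissue, fewer cells of a type and less RNA per cell cannot be told apart. Since the lobes are not labelled, a difference in the lobes taken cannot be told apart from either.

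The rodent prostate has paired lobes whose luminal cells secrete different proteins into the seminal fluid, under control of androgen. Sbp encodes spermine binding protein, a major androgen-dependent product of the ventral lobe, and the gland is known for its high output of the polyamine spermine. Sbpl encodes a protein very like it. Spink1, formerly named Spink3 in the mouse, encodes a small secreted trypsin inhibitor of the Kazal type, made in the male accessory glands and in the pancreas. Abo is different in kind: it encodes a glycosyltransferase of the Golgi apparatus, the mouse counterpart of the human blood group enzyme, which adds a terminal sugar to glycans carrying the H antigen. It is a secretory pathway enzyme and not a major secreted product, so the name secretory gene describes it less exactly than the other 3. The name ventral-type is background knowledge, because no library was labelled by lobe.

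Sbp and Sbpl lie side by side on chromosome 17, and their related sequence bears on how reads were divided between them. In the GENCODE M21 annotation of GRCm38, Sbp is on the plus strand at chr17:23941672-23945607 with 7 transcripts, and Sbpl is on the minus strand at chr17:23953084-23955274 with 2. The 2 genes are transcribed toward each other across a gap of 7476 bases. The coding sequences of Sbp and Sbpl aligned over 594 bases, of which 554 were identical (93.3%). Coding exon 2 was identical over all 106 bases, and coding exon 3 was identical at 395 of 433 aligned bases. Of the 806 distinct 75-base windows in Sbpl transcripts, 223 (27.7%) were also present in Sbp transcripts. No other gene's transcripts held a window of Sbp or Sbpl, and 0 windows of Spink1 or Abo were found in any other gene. Reads from 27.7% of Sbpl windows could thus come from either copy, while reads of Spink1 and Abo were distinct at this length.

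The stretch of 60 aligned coding bases with the most differences lies near the end of coding exon 3, and shows where a read separates the 2 copies. It covers chr17:23945349-23945408 in Sbp and chr17:23953297-23953356 in Sbpl, and the 19 positions that differ are in capitals. Each is written 5′ to 3′ on its gene's own strand.
Sbp: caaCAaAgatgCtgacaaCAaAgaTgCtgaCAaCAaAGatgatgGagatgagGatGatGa
Sbpl: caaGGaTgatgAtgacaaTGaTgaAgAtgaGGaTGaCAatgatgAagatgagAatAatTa

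The bases just before the first annotated exon are shown because the 2 neighbours had a like pattern across libraries, apart from control 2. They are RefSeq promoter sequences of GRCm38.p6, at chr17:23941428-23941671 on the plus strand for Sbp and chr17:23955275-23955523 on the minus strand for Sbpl. Capitals mark a TATAAA box, which begins 29 bases before the first exon of Sbpl.
Sbp upstream: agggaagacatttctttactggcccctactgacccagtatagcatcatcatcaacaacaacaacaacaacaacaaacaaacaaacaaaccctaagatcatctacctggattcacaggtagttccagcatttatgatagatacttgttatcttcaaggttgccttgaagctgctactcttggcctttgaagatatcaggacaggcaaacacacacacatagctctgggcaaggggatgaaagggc
Sbpl upstream: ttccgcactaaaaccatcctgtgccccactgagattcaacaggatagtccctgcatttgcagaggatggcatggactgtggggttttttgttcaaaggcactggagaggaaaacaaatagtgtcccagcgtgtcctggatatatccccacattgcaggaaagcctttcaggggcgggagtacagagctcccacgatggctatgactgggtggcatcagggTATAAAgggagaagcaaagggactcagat

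Promoter windows were matched for 2 of the 4 genes, with 3 windows for Sbp, which has several starts, and 1 for Sbpl. The TATAAA letters were searched on the coding strand alone and were found in the Sbpl window and in 0 of 3 Sbp windows, against 7.59% of all 32851 windows of 250 bases. The androgen response half-site AGAACA, searched on both strands, was found in 1 of 3 Sbp windows, 64 bases before its RefSeq start, and not in the Sbpl window, against 16.1% of all windows. The full palindromic androgen response element, which holds that half-site in both of its arms, was found in no Sbp or Sbpl window and in 0.00913% of all windows. The forkhead motif TGTTTAC, on both strands, was in none of these 4 windows and in 3.17% of all. These letters describe the windows searched and nothing more.

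Sbp was among the 6 genes with most reads in every control and was at 40.4 CPM or less in every knockout. It was counted 634833, 166653 and 1309367 times in control 1, 2 and 3, which is 30978, 10639.6 and 89475 CPM. In knockout 1, 2 and 3 it was counted 538, 220 and 36 times, which is 40.4, 9.12 and 1.38 CPM. The groups did not overlap: the lowest control stood 263 times above the highest knockout. The log2 fold change was -11.34 ± 1.85 (SE) in edgeR. Every SE of a log2 fold change here is its absolute value divided by the square root of the F statistic. For Sbp, Sbpl, Spink1 and Abo it is a description only.

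Sbpl was also high in every control and low in every knockout. Its counts were 259404, 204139 and 470047 in control 1, 2 and 3, or 12658, 13033 and 32120.4 CPM. Its counts were 261, 100 and 16 in knockout 1, 2 and 3, or 19.6, 4.15 and 0.613 CPM. Control 1 and 2 were nearly equal here, control 3 was higher, and no control came near a knockout. The log2 fold change was -11.23 ± 1.60 (SE).

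Spink1, at chr18:43728082-43737557 on the minus strand, had the most even controls of the 4 genes, with a 1.98-fold span between the lowest and the highest. It stood at 21763, 25457 and 43015 CPM in control 1, 2 and 3, from 445999, 398746 and 629476 counts. It stood at 31.7, 4.85 and 1.03 CPM in knockout 1, 2 and 3, from 422, 117 and 27 counts. As for the other genes, control 3 was highest and knockout 3 lowest. The log2 fold change was -11.24 ± 1.64 (SE).

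Abo, at chr2:26842503-26864979 on the minus strand, was expressed at a much lower level in controls and was close to the limit of detection in knockouts. It stood at 600.5, 626 and 1401 CPM in control 1, 2 and 3. It was counted 5, 4 and 2 times in knockout 1, 2 and 3, which is 0.376 (95% exact Poisson interval 0.122 to 0.877), 0.166 (0.0452 to 0.425) and 0.0766 CPM (0.00928 to 0.277). These intervals cover counting error only and overlap one another, so no order among the knockouts could be told for Abo at this depth. The control libraries were all above the knockouts, and the log2 fold change was -12.19 ± 0.71 (SE). Among all 13762 tested genes 32.4% had no overlap between the groups and 18.3% had every knockout below every control. The 4 genes were chosen for such a pattern, so nothing is read from their count.

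**Figure D1:**
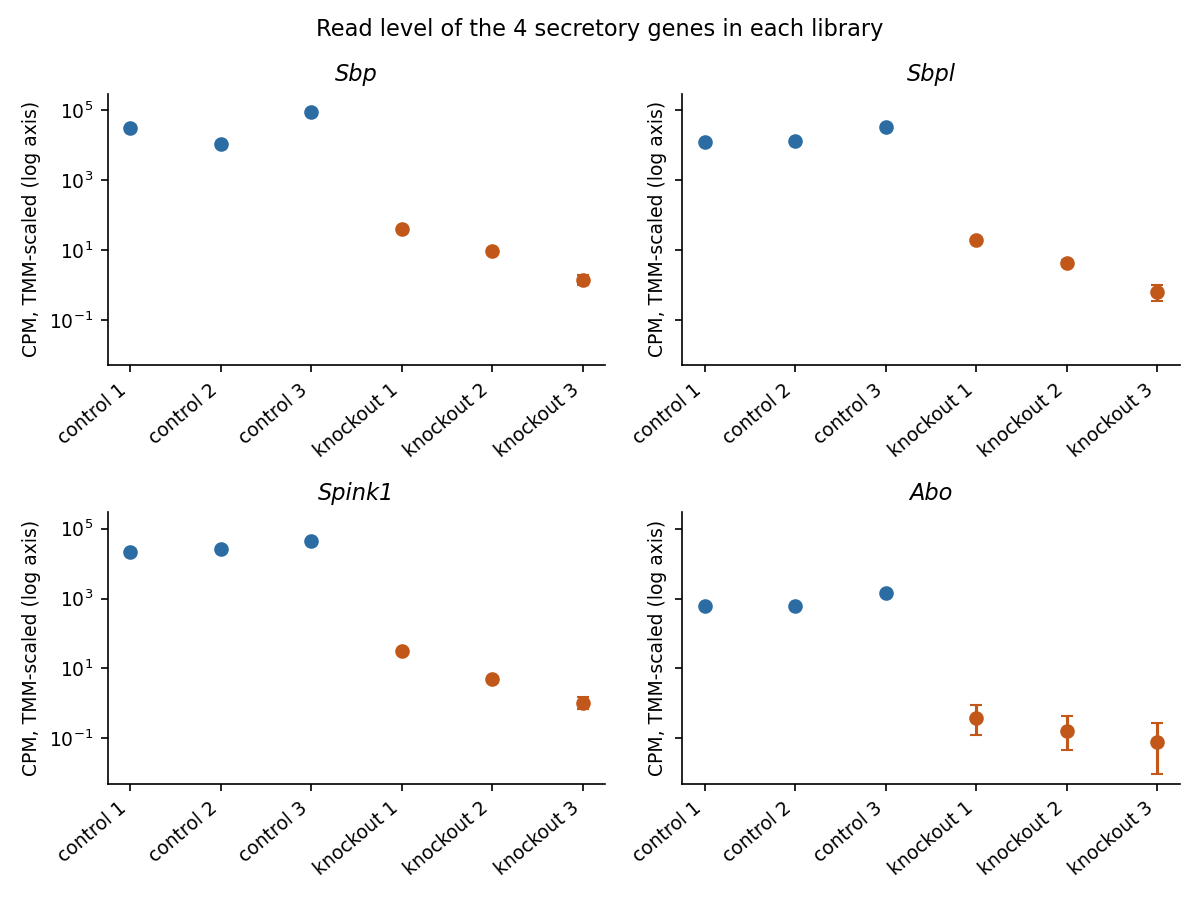
TMM-scaled CPM of each gene in each library on a log axis, controls in blue and knockouts in orange, with 95% exact Poisson intervals that cover counting error only and are smaller than the points where not visible. In all 4 panels the controls sit far above the knockouts, control 3 is highest, knockout 1 is the highest knockout and knockout 3 the lowest, while Sbp alone drops in control 2, to 10639.6 CPM.

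The ratio of group means was 2574 for Sbp, 2372 for Sbpl, 2400.3 for Spink1 and 4251 for Abo. The size of the fold rested in part on 1 library. Without knockout 1, which held the highest residue of all 4 genes, the log2 fold change was -13.02 for Sbp, -12.98 for Sbpl, -13.32 for Spink1 and -12.76 for Abo. Without control 3 that of Sbp was -10.28.

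Per length of merged exon, which allows levels of different genes to be set beside each other, the control level was 41259.9 ± 15575 CPM per kilobase (SD, n = 3) for Spink1 and 29706 ± 27823 for Sbp. It was 21824 ± 12605 for Sbpl and 456 ± 237 for Abo. Spink1 was above Sbpl in each control, at 29854 against 14335, 34920.4 against 14759.6 and 59005 against 36376 CPM per kilobase. Sbp was above Spink1 in control 3 only, and below Sbpl in control 2 only. Abo was below the other 3 in each control. The merged exons of Sbp, 1471 bases, include alternative first exons, which lowers its value per length.

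Together the 4 genes took a visible part of each control library. They made up 6.76%, 4.85% and 18.9% of all counts in control 1, 2 and 3, against 0.00831%, 0.00182% and 0.000301% in knockout 1, 2 and 3. Sbp alone was 10.2% of control 3, where it was the most counted gene of all, with Spink1 and Sbpl next. Sbp had rank 3 in control 1 and rank 6 in control 2. Abo ranked 114, 106 and 20 in control 1, 2 and 3. In knockout 3 the ranks were 12233 for Sbp, 13302 for Sbpl, 12655 for Spink1 and 15515 for Abo. Reads taken by such genes lower the share left for others, so scaling was repeated with the 4 genes left out of the library sizes and factors. The log2 fold change of Spink1 was then -11.24 and the number of genes called was 698, the values with the 4 genes kept in. TMM scaling trims genes with extreme ratios, so these values could hardly have changed. The repeat is therefore no check on that lowering.

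**Figure D2:**
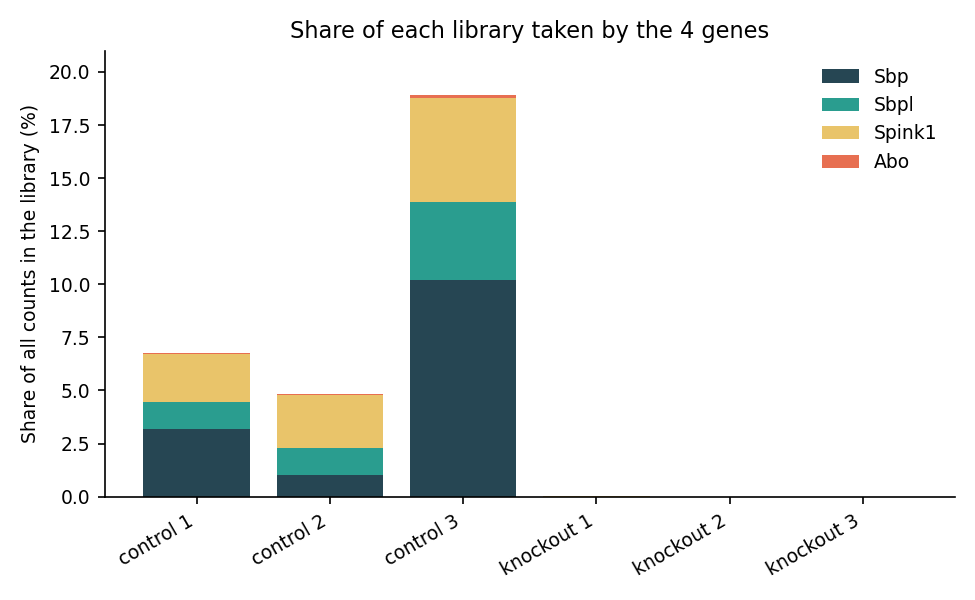
Stacked bars give the percentage of all counts in each library that fell on Sbp, Sbpl, Spink1 and Abo. The bars reach 6.76%, 4.85% and 18.9% in control 1, 2 and 3, and the knockout bars, at most 0.00831%, are too low to see.

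Within the groups, which the choice of genes did not use, the 4 genes kept nearly one order of libraries. In all 4, control 3 was the highest control, knockout 1 the highest knockout and knockout 3 the lowest, although for Abo the knockout values lay within counting error. Over all tested genes 7.88% showed that order, 38.0% were highest in control 3 and 24.0% had the same order of knockouts. Knockout 1 exceeded knockout 2 by 4.43-fold for Sbp, 4.73-fold for Sbpl, 6.54-fold for Spink1 and 2.27-fold for Abo. Knockout 2 exceeded knockout 3 by 6.61-fold, 6.76-fold, 4.69-fold and 2.16-fold in the same order. Total counts ran the other way among knockouts, from 14761703 in knockout 1 to 26910053 in knockout 3, and control 3 had the smallest total of the controls, 12826463. Whether depth or library preparation had a part in this order was not tested.

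After the mean of each group was taken away, the deviations of log2 CPM correlated between every pair of the 4 genes over the 6 libraries. Pearson's r was 0.99 for Sbpl with Spink1 and 0.84 for Spink1 with Abo, the highest and the lowest of the 6 pairs, and Spearman's rho ran from 0.83 to 0.94. These are descriptions over 6 points that share library and depth, and the wide steps among the knockouts weigh most in them.

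Control 2 broke the pattern for Sbp only. Relative to control 1 it stood at 0.343 for Sbp, but at 1.03 for Sbpl, 1.17 for Spink1 and 1.04 for Abo. There were 0.816 Sbp reads per Sbpl read in control 2 (95% exact interval 0.811 to 0.822), against 2.45 in control 1 and 2.79 in control 3. In knockout 1, 2 and 3 the ratio was 2.06 (1.77 to 2.40), 2.20 (1.73 to 2.82) and 2.25 (1.22 to 4.34). The knockout ratios were nearer to those of control 1 and 3 than to that of control 2, but each was lower than both. The interval of knockout 1 ended below both. Control 2 stood apart from all 5 other libraries. Intervals cover counting error only.

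The ratios of Spink1 and Abo to Sbpl varied less among controls. There were 1.72, 1.95 and 1.34 Spink1 reads per Sbpl read in control 1, 2 and 3, while the knockouts in the same order had 1.62, 1.17 and 1.69. Both groups covered much the same span. Abo reads per 100 Sbpl reads were 4.74 in control 1 and 4.36 in control 3, with control 2 between 4.71 and 4.90 by its interval, the most constant ratio of all. In knockout 1 it was 1.92 (0.617 to 4.53), from 5 Abo reads, and its interval reached the value of control 3. The intervals of 1.07 to 10.6 in knockout 2 and 1.39 to 53.2 in knockout 3 rested on 4 and 2 Abo reads and held the values of all controls.

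**Figure D3:**
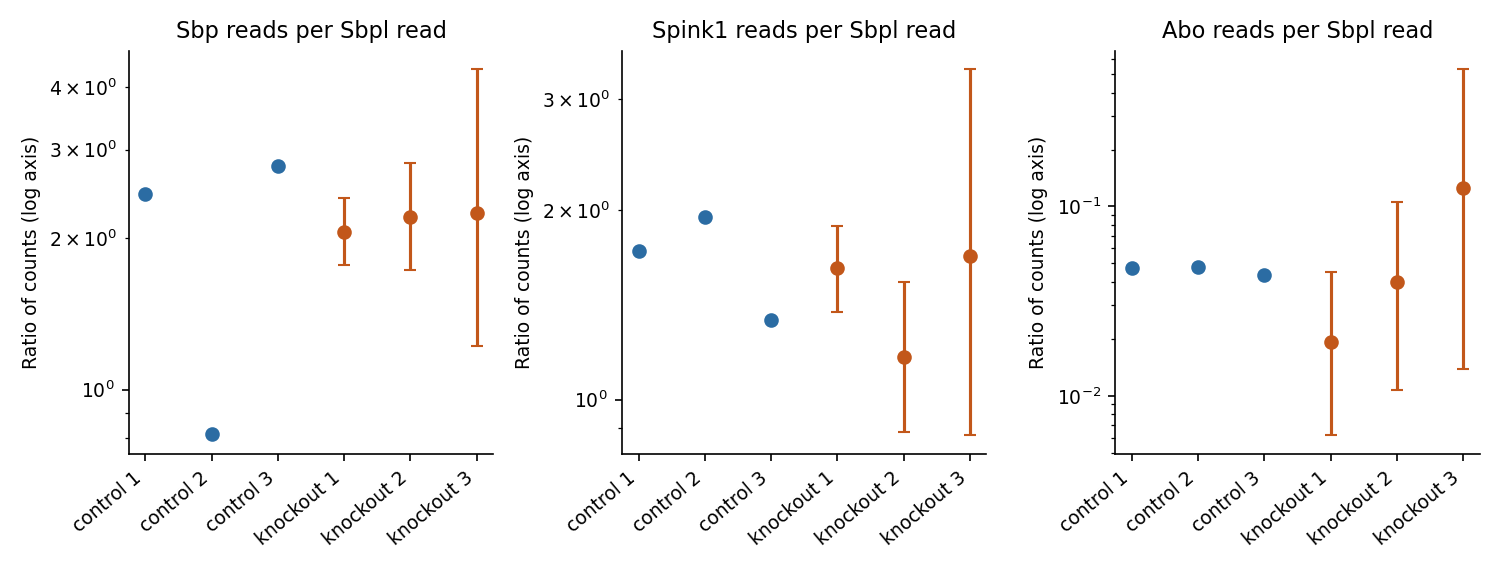
Reads of Sbp, Spink1 and Abo per read of Sbpl in each library, on log axes, with 95% exact intervals for counting error. Control 2 lies at 0.816 for Sbp while the other 5 libraries lie between 2.06 and 2.79, and the Abo ratio is level across controls and wide in the knockouts.

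As a share of the control mean, the residue in the knockouts was alike for Sbp, Sbpl and Spink1. In knockout 1 it was 0.0925%, 0.102% and 0.105% of the control mean for these genes, and 0.0429% for Abo. In knockout 2 it was 0.0209%, 0.0215% and 0.0161%, and 0.0189% for Abo. In knockout 3 it was 0.00316%, 0.00318% and 0.00344%, and 0.00875% for Abo, from 2 reads. Reads passing from one library to another in the pooled sequencing run were not tested as a source of these counts.

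The rule that chose the genes had no numeric limit, so the genes nearest to it are given by a limit set after the values were seen. Of 94 genes with at least 500 CPM in every control, 10 were under 50 CPM in every knockout, and the 4 genes were among them. Ordered by the lowest control over the highest knockout, Abo came first (ratio 1598), then Spink1 (686) and Sbpl (645), with Sbp seventh (263). The 6 genes that are not in the set were 5430419D17Rik (489), the secretoglobin genes Scgb2b7 (379) and Scgb2b27 (375), Spink5 (227), Nupr1 (163) and Slc12a2 (122). The lowest of these, Slc12a2, encodes a sodium, potassium and chloride cotransporter.

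**Figure D4:**
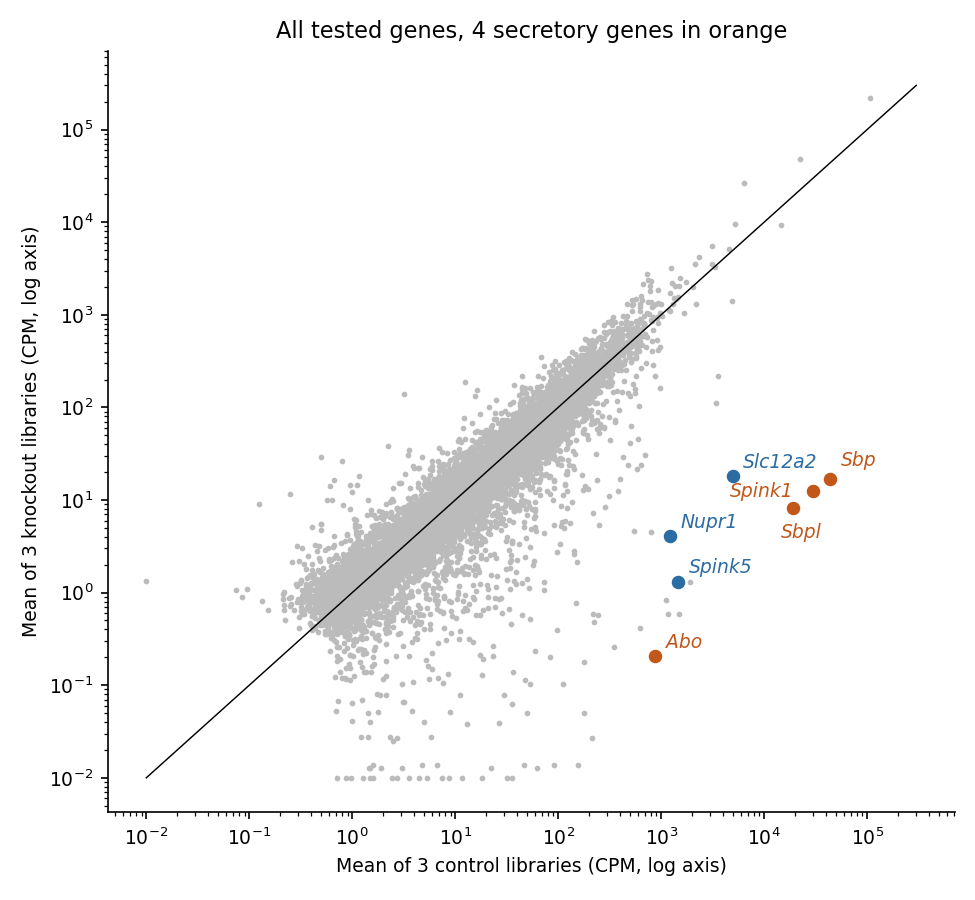
Mean CPM in 3 knockouts against mean CPM in 3 controls for all 13762 tested genes, on log axes, with genes at 0 drawn at the lower edge and the line of equality in black. Sbp, Sbpl, Spink1 and Abo (orange) and Spink5, Nupr1 and Slc12a2 (blue) lie far below the line.

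Genes that act beside the 4 were read from 10 lists with 151 tested genes, fitted with all 13762 genes in edgeR's quasi-likelihood test. Over all genes 5.07% were called at an adjusted p of 0.05, with 4.66% lower in the knockout and 0.414% higher, and the median log2 fold change was 0.03. The lists were chosen with earlier results of these data known, so nothing is read from how their share compares with that of all genes. In the lists 19 genes fell (12.6%) and 1 rose, with a median of -0.10. Of these 20 calls 11 were kept without any 1 library. The smallest 2-sided p that 3 libraries against 3 can give by exact permutation is 0.1, so single values rest on the model over all genes.

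Beside Spink1, the Kazal family list had 9 tested members, of which 1 fell and none rose, with a median log2 fold change of 0.13. The one that fell was Spink5, which encodes a multidomain protease inhibitor best known from skin and lies 5 genes or fewer from Spink1 on chromosome 18. Spink5 stood at 751, 1369 and 2249 CPM in control 1, 2 and 3, against 3.31, 0.580 and 0.0383 CPM in knockout 1, 2 and 3. Its log2 fold change was -10.26 ± 1.36 (SE; adjusted p = 0.00661, edgeR), and its order of knockouts was that of Spink1. Of 9 tested trypsin-like and epithelial serine proteases, the class of enzyme that Spink1 inhibits, 1 fell and 1 rose. Tmprss4, a membrane protease gene, fell from 5.22, 5.43 and 6.90 CPM to 2 reads over the 3 knockouts (adjusted p = 0.00228). Prss23, which encodes a secreted protease, rose from 40.3, 39.6 and 36.5 CPM to 61.1, 77.2 and 59.8 CPM (log2 fold change 0.77 ± 0.16; adjusted p = 0.0415), but leaving out any 1 library ended that call (adjusted p up to 0.162), as did library size alone as scaling and a fit with no filter on low counts. Genes of the exocrine pancreas, where Spink1 is also made, summed to 5.42 to 26.7 CPM in controls and 1.26 to 2.93 CPM in knockouts over 8 markers. The sums did not overlap. Cela1 made up most of it in each control and was the only marker with enough reads to test (adjusted p = 0.0671, edgeR), and 1 marker had no read in any library. Their part in the result was not tested.

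Beside Sbp, the polyamine list had no call among 20 tested members, and its median log2 fold change was 0.14. Odc1, the first enzyme of polyamine synthesis, stood at 79.9, 111 and 321 CPM in control 1, 2 and 3, against 71.4, 68.4 and 75.1 CPM in the knockouts (adjusted p = 0.190, edgeR). Its highest value was in control 3, as for Sbp. Sms, spermine synthase, stood at 28.0, 34.9 and 10.1 CPM and at 63.0, 48.1 and 37.9 CPM (adjusted p = 0.212), and was lowest in control 3. Srm, spermidine synthase, stood at 68.6, 65.5 and 80.8 CPM and at 96.1, 63.6 and 78.5 CPM, with overlap between the groups. Zg16, a gene of the jacalin-related lectins whose protein fold spermine binding protein resembles, had 0 reads in all 6 libraries. Amd1, which makes the aminopropyl donor, had 3 reads in all, and its copy Amd2 had 0. Oaz1, the antizyme gene, had 2 to 6 reads in each library. None of these 3 was tested, and since cells in general use Amd1 and Oaz1, these low counts are not read as absence of expression.

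Beside Abo, the list of enzymes that build blood group and related glycans had 27 tested members, of which 4 fell (14.8%) and none rose, with a median log2 fold change of 0.30. Ggta1, a galactosyltransferase gene of the same enzyme family as Abo, fell from 76.1, 37.8 and 212 CPM to 2.18, 8.33 and 6.70 CPM (log2 fold change -4.22 ± 0.74; adjusted p = 0.0199, edgeR). Its call was lost without any 1 of the knockout libraries, with an adjusted p of up to 0.0879. B4galt6, a galactosyltransferase gene, fell from 94.9, 106 and 185 CPM to 6.54, 5.80 and 4.67 CPM (adjusted p = 7.38e-04). B4galnt2, which encodes an enzyme of the Sd(a) blood group, fell from 95.7, 66.8 and 15.8 CPM to under 1 CPM (adjusted p = 0.00238), and was lowest in control 3, unlike Abo. B4galnt1, of ganglioside synthesis, fell by 1.27 on the log2 scale (adjusted p = 0.0285), a call lost without control 2 or any knockout library (adjusted p up to 0.115). Fut2, which makes the H antigen that the Abo enzyme extends, stood at 134.97, 109 and 27.9 CPM in controls and 115, 116 and 167 CPM in knockouts (adjusted p = 0.537). Fut1, the other H enzyme, and Gbgt1, another gene of Abo's family, had at most 15 reads in a library and were not tested.

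Genes next to the 4 on the chromosome did not share one course. Among the 5 nearest genes in the table on each side of each locus, 17 were tested, 3 fell and none rose, and the median log2 fold change was -0.18. Apart from Spink5, the falls were Surf6 and Med22, the nearest genes on one side of Abo. Surf6, of ribosome assembly, stood at 94.3, 98.4 and 180.5 CPM in controls and 26.6, 24.2 and 29.5 CPM in knockouts (adjusted p = 0.00567, edgeR). Med22, a Mediator subunit gene, stood at 206, 200.98 and 395 CPM and at 79.6, 77.2 and 85.1 CPM (adjusted p = 0.0170), a call lost without any 1 knockout library (adjusted p up to 0.0875). Around Sbp and Sbpl, Dcpp2, Dcpp3 and Prss21 had 0 reads in all libraries and Dcpp1 had 3 reads, all in control 2. Prss22 was at 3.76 CPM or less in every library. The high reads at this locus in controls were those of Sbp and Sbpl.

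Other secretory products of the prostate went different ways. Of 7 tested, 1 fell (Msmb) and none rose. Tgm4, the prostate transglutaminase, had 32009, 34344 and 21.8 CPM in the controls, numbered 1 to 3, and 45016 to 49776 CPM in the knockout libraries, and Pbsn, probasin, had 9754, 8716 and 546 CPM and 15600.4 to 37873 CPM. Neither passed the test (adjusted p = 0.712 and 0.266, edgeR). Control 3, where Sbp, Sbpl, Spink1 and Abo were highest, was the control in which Tgm4 and Pbsn were lowest. Msmb, which encodes a secreted beta-microseminoprotein, stood at 1.27, 311 and 346 CPM in controls and 1.20, 0.497 and 0.0766 CPM in knockouts (adjusted p = 0.0461), a call that survived only the removal of control 1 among the 6 left-out libraries (adjusted p up to 0.168) and was also lost with upper-quartile scaling and limma-voom.

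General epithelial markers overlapped between the groups, while the sum of the proximal luminal markers was lower in the knockouts. The summed level of 8 luminal and general epithelial markers was 2787 to 3361 CPM in controls and 2900.5 to 3838 CPM in knockouts, and none was called. Krt18, a luminal keratin gene, stood at 705, 679.7 and 637 CPM and at 1036, 756 and 616 CPM (adjusted p = 0.594, edgeR). The 5 basal markers summed to 244 to 328 CPM and 261 to 452 CPM. The 5 proximal luminal markers summed to 411 to 975 CPM in controls and 26.2 to 265 CPM in knockouts, without overlap. Of the 4 that were tested 1 fell (Ppp1r1b, adjusted p = 0.0323, edgeR). Over all tested genes 4.66% were called lower, and 18.3% had every knockout below every control. Such a sum can rest on 1 abundant marker. The part of the proximal luminal markers in the result was not tested. Adipocyte markers summed to 855 CPM in control 3 and to at most 56.0 CPM in the other libraries, which sets that control apart in tissue content too. Seminal vesicle markers summed to at most 3.91 CPM in any library. Of 20 tested genes of epithelial structure 2 fell, the tight junction genes Tjp3 (adjusted p = 0.00558) and Cgn (adjusted p = 0.0490), and the call of Cgn was lost without any 1 library (adjusted p up to 0.117) and under 3 other scalings.

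Among transcription factors of the prostate epithelium 4 of 22 fell (18.2%) and none rose, with a median log2 fold change of -0.52. Tfcp2l1, a grainyhead-like factor gene, fell from 81.1, 137 and 121 CPM to 5.79, 5.56 and 3.72 CPM (adjusted p = 5.97e-04, edgeR). Klf5, a zinc finger factor gene, fell from 13.8, 13.7 and 18.4 CPM to 1.28, 0.788 and 0.498 CPM (adjusted p = 0.00181). Creb3l4, a membrane-bound factor gene of the secretory pathway, fell from 17.8, 15.4 and 14.5 CPM to 2.71, 2.65 and 2.99 CPM (adjusted p = 0.00170). Runx1 fell by 1.34 on the log2 scale (adjusted p = 0.0366), a call lost without any 1 library (adjusted p up to 0.143) and with upper-quartile scaling. Hoxb13, Foxa1 and Spdef had log2 fold changes of -0.57, -0.49 and -0.10, and none passed (adjusted p of 0.288 to 0.806).

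Of 24 tested androgen-responsive genes 4 fell (16.7%) and none rose, with a median log2 fold change of -0.23. Fkbp5, a co-chaperone gene of steroid receptors, stood at 350.1, 404 and 1049 CPM in control 1, 2 and 3, against 54.0, 36.3 and 47.0 CPM in knockouts (adjusted p = 0.00567, edgeR). It was highest in control 3, as Sbp, Sbpl, Spink1 and Abo were. Homer2, a scaffold protein gene, fell from 19.5, 24.1 and 17.6 CPM to 1.80, 0.912 and 0.919 CPM (adjusted p = 0.00122). Slc45a3, which encodes prostein, and Mboat2, an acyltransferase gene, had log2 fold changes of -2.06 and -3.01 (adjusted p = 0.0130 and 0.0141), and both calls were lost without knockout 2, that of Mboat2 also without knockout 3 (adjusted p up to 0.0755).

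Among eligible genes, those whose pattern over the 6 libraries was most like the mean of Sbp, Sbpl and Spink1 moved by far less. Only genes with a mean log2 CPM of at least 5 were eligible. This limit can leave out genes that fell from a moderate control level to almost no reads. Abo itself, with a mean log2 CPM of 3.9283, was below it. The smaller falls therefore follow in part from the limit. Of 4991 eligible genes, the 10 with the highest Pearson r (0.985 to 0.996) included Vmp1, Phlda1, Cmas, Slc12a2, Slc4a7, Efna1, Smco4, Rhou and Nupr1, with Spearman's rho of 0.886 to 1. Their log2 fold changes ran from -0.68 for Efna1 to -8.24 for Nupr1, against -11.23 to -12.19 for Sbp, Sbpl, Spink1 and Abo. Vmp1, an autophagy membrane protein gene, was most alike (r = 0.996) with 263, 239.6 and 261 CPM in controls and 162, 146 and 133.56 CPM in knockouts. Slc12a2 stood at 3612, 4186 and 7056 CPM in controls and 29.5, 12.9 and 11.7 CPM in knockouts. These genes were picked by likeness to genes that separate the genotypes, so their own difference is a description.

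Likeness within the groups picked other genes. With group means taken away, the highest r was that of Qtrt1, Nr2f2, Emc2, Hsd17b10, Mcl1 and Rpl3 (0.988 to 0.997), and their log2 fold changes were -0.25 to 0.44. Nr2f2, a nuclear receptor gene, stood at 108, 108 and 130.2 CPM in control 1, 2 and 3, against 126, 95.7 and 70.1 CPM in knockout 1, 2 and 3. The order of libraries within groups and the gap between groups were thus not tied in those genes. With library size alone as the scaling, 0 of these 6 genes were picked again, so this list depends on how libraries were scaled.

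**Figure D5:**
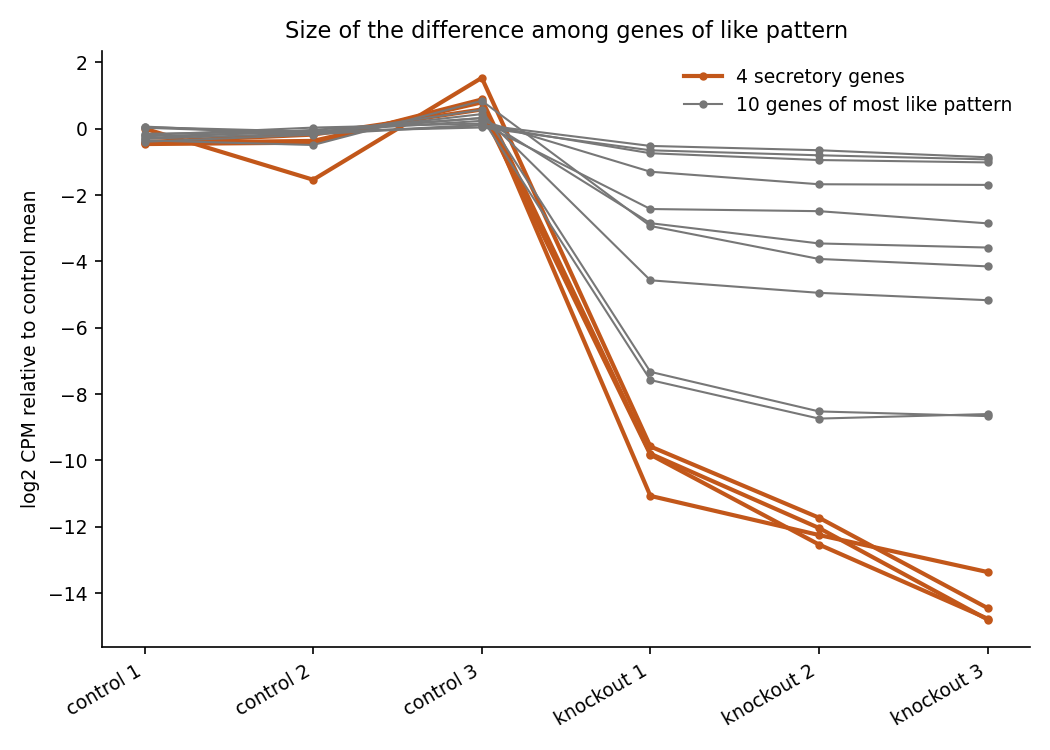
log2 CPM relative to the control mean in each library for Sbp, Sbpl, Spink1 and Abo (orange) and the 10 genes with the highest Pearson r to the mean of Sbp, Sbpl and Spink1 (grey). In every knockout the orange lines lie below all grey lines, of which none has a log2 fold change under -8.24. The orange genes were chosen for near absence in knockouts, and the grey genes needed a mean log2 CPM of at least 5. The gap between the lines follows in part from these choices.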

How the data were processed

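Raw counts, deposited by the authors as 1 table, cover 24421 gene symbols in 6 libraries, and 0 columns were unmapped. RNA was polyA-selected and made into strand-preserving libraries, per the labels' protocols. STAR, DESeq2 and mm10 appear, with no role, in the submitters' processing notes. For the counting program, annotation and strand, the answer is not given in the sources used here. Libraries were grouped by genotype, and their numbers, given in accession order, pair nothing. Since separate animals are not stated, p-values reflect only how these libraries spread.

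Counts were tested with edgeR 4.0.16 (R 4.3.3): expression filter with a minimum count of 10, TMM scaling, quasi-likelihood F test, Benjamini-Hochberg adjustment over 13762 genes. DESeq2 1.42.0 and limma 3.58.1 were alternatives. CPM use TMM-scaled library sizes. Genes and lists were chosen with earlier results of these data known. Named list genes were those past the threshold, at most 6 a list, plus a set chosen by role. Dcpp1 to Dcpp3, Prss21, Prss22, Cela1, Amd2, Oaz1, Ppp1r1b, 9530053A07Rik and the genes outside the rule's limit were named after their values were seen. Likeness used log2 CPM with a prior count of 2 and genes with a mean of at least 5. No 2 libraries were duplicates (chi-square per gene 51 to 944). Some genes that the naming rule covers are not reported here. The test was checked on simulated counts.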

Additional observations from a re-analysis of the deposited data

How the results depend on the processing

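No paired analysis was possible because the titles carry no replicate number that both groups share. The log2 fold changes of Sbp, Sbpl, Spink1 and Abo were negative under all 15 alternatives. Their ranges were -13.02 to -10.28, -12.98 to -10.67, -13.32 to -10.69 and -12.76 to -11.70, and limma-voom gave -12.21, -12.50 and -12.68 for the first 3. Without control 3 and knockout 1 together they were -11.96, -12.41 and -12.98.

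The 698 calls over all genes became 1618 with DESeq2 (71.9% lower, against 91.8%), 1190 and 246 at thresholds of 0.1 and 0.01, and 1229 (70.1% lower) without control 3 and knockout 1. They were 255 to 551 with 1 library left out (446, 453, 255 and 282 without control 1 and knockout 1, 2 and 3). All 698 were among the DESeq2 calls. The 20 calls of the lists became 39 with DESeq2, 11 at a threshold of 0.01 and 39 without control 3 and knockout 1, and were 11 to 17 with 1 library left out, lowest without knockout 2 (11) and knockout 3 (12). The cause was not tested, apart from the fewer samples or the other threshold. With library size alone the median log2 fold change of all genes was -0.10 against 0.03. The list of 10 genes of like pattern shared 3 with that by Spearman's rho, where 45 genes tied at 1, and 7 with that by library size alone. Abo in the knockouts, at 2 to 5 reads, is limited by depth. The labels do not say which lobes were taken.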
